A study of Homo sapiens with 6 samples.

Results

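The genes described here encode the constitutive 26S proteasome, the form of the complex that nearly all human cells carry. They were chosen by gene symbol from a list that names the PSMA, PSMB, PSMC and PSMD genes, and they number 34 of the 24305 genes in the count table. Of the 34 genes, 14 encode the core particle and 17 the regulatory particle. The other 3, PSMD5, PSMD9 and PSMD10, go against the name of the list: they encode chaperones that help to assemble the base of the regulatory particle and are not subunits of the finished complex, so they are described apart.

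RNA was sequenced from DU 145 cells, an established line from a castration-resistant human prostate cancer that the series design describes as deficient in homologous recombination repair. One group had 48 h with talazoparib, an inhibitor of the PARP enzymes that sense DNA breaks (n = 3 libraries). The control group, labelled "DMOS" and read here as the solvent DMSO, was also taken at 48 h (n = 3). Both groups share the cell line and carry no other labelled treatment. The labels of these libraries do not give the dose. They also do not say whether the replicates were separate cultures, and each p-value below reflects no more than the scatter among the 6 libraries, part or all of which may be technical. PC-3, the other line of the design, was not analysed here.

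The proteasome degrades proteins tagged with ubiquitin. Its core particle is a barrel of rings: the outer alpha rings gate the entrance, and the inner beta rings hold the proteolytic sites. The regulatory particle caps the barrel. Its base contains a ring of ATPases that unfolds substrates and threads them in, and its lid removes the ubiquitin chain. Subunits are needed in fixed proportions, and in many cells their genes are induced together by the transcription factor NFE2L1 when proteasome activity is low.

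Libraries held 39123997 to 39585727 counts, and each member had 665 to 56877 counts in a library, so no member lay near the filter's minimum count of 10. Control replicate 1 stood apart from the other controls for the members that rose: among the 15 members called higher it was the highest control for 15, and control replicate 2 was the lowest for 15. Talazoparib replicate 3 was the lowest talazoparib library for the same 15. The epithelial keratin genes KRT8, KRT18 and KRT19 were expressed, and the summed FPKM (fragments scaled to gene length and library size) of the epithelial list ran from 642 to 764.7 in controls and from 692 to 756 with talazoparib. The leukocyte markers PTPRC and CD3E had 0 counts in all 6 libraries. Of 4 fibroblast markers DCN and LUM had 0 counts, while COL1A1 had 82 to 117 counts and COL3A1 564 to 955. COL3A1, named after its values were seen, was called lower with talazoparib (log2 fold change -0.40, edgeR adjusted p = 0.0196), a call lost without control replicate 2 (-0.39) or 3 (-0.44) or talazoparib replicate 1 (-0.33) or 2 (-0.32); its part in the results was not tested. Reads can be shared with named pseudogenes for 11 members, among them PSMC1 with 13, PSMA6 with 4 and PSMA2 and PSMD10 with 3 each. The exons of 10 members, PSMD1, PSMD6 and PSMD14 among them, overlap a gene on the opposite strand, and those of PSMA1, PSMA2, PSMA6 and PSMD9 overlap a gene on the same strand; these counts are less certain.

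All 34 members were expressed and tested. With talazoparib 15 rose, 14 fell and 5 did not pass the test (edgeR's quasi-likelihood test, Benjamini-Hochberg adjusted over all genes, threshold 0.05). The background was high: 56.7% of the 14452 genes tested passed in either direction, 26.8% as higher and 29.9% as lower. The median log2 fold change was 0.02 over the members and 0.002 over all genes tested. The extremes were PSMC6, which fell by 49.5%, and PSMD9, which rose by 39.4%. Control and talazoparib libraries were fully separate for 29 of the 34 members, against 64.4% of all genes tested. In bulk RNA, a change in the make-up of the cells and a change in RNA per cell cannot be told apart.

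By role, the beta ring was the most uniform group: 6 of its 7 genes rose and PSMB2 did not pass (median log2 fold change 0.32). In the alpha ring 2 of 7 rose and 4 fell (median -0.23). The ATPase ring divided, with 2 rises and 3 falls among 6 (median -0.17), and so did the lid, with 2 rises and 4 falls among 8 (median -0.15). Of the remaining base subunits 2 of 3 rose, and of the base chaperones 1 of 3 rose and 2 fell. No member changed sign under another scaling of the libraries, but PSMB1 and PSMC4 were no longer called when counts were scaled by their totals alone.

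Changes in these libraries also moved with the composition of the mRNA, among the members as among all genes. A further fit therefore removed from each library its trend over transcript GC content and gene length, and its values are called trend-removed. In that fit 6 members were higher and 11 lower, beside 22.0% and 22.2% (44.2% in either direction) of the 13718 genes with both properties. Of the 15 rises 3 stayed higher, 3 became lower and 9 did not pass. Of the 14 falls 7 stayed lower, 1 became higher and 6 did not pass. With length alone removed 2 members were higher and 14 lower, beside 28.9% and 24.6% of all genes (53.5% in either direction). With GC content alone removed 14 were higher and 5 lower, beside 22.3% and 22.2% (44.5%). The part of the composition trend in the changes was not tested.

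**Figure D1:**
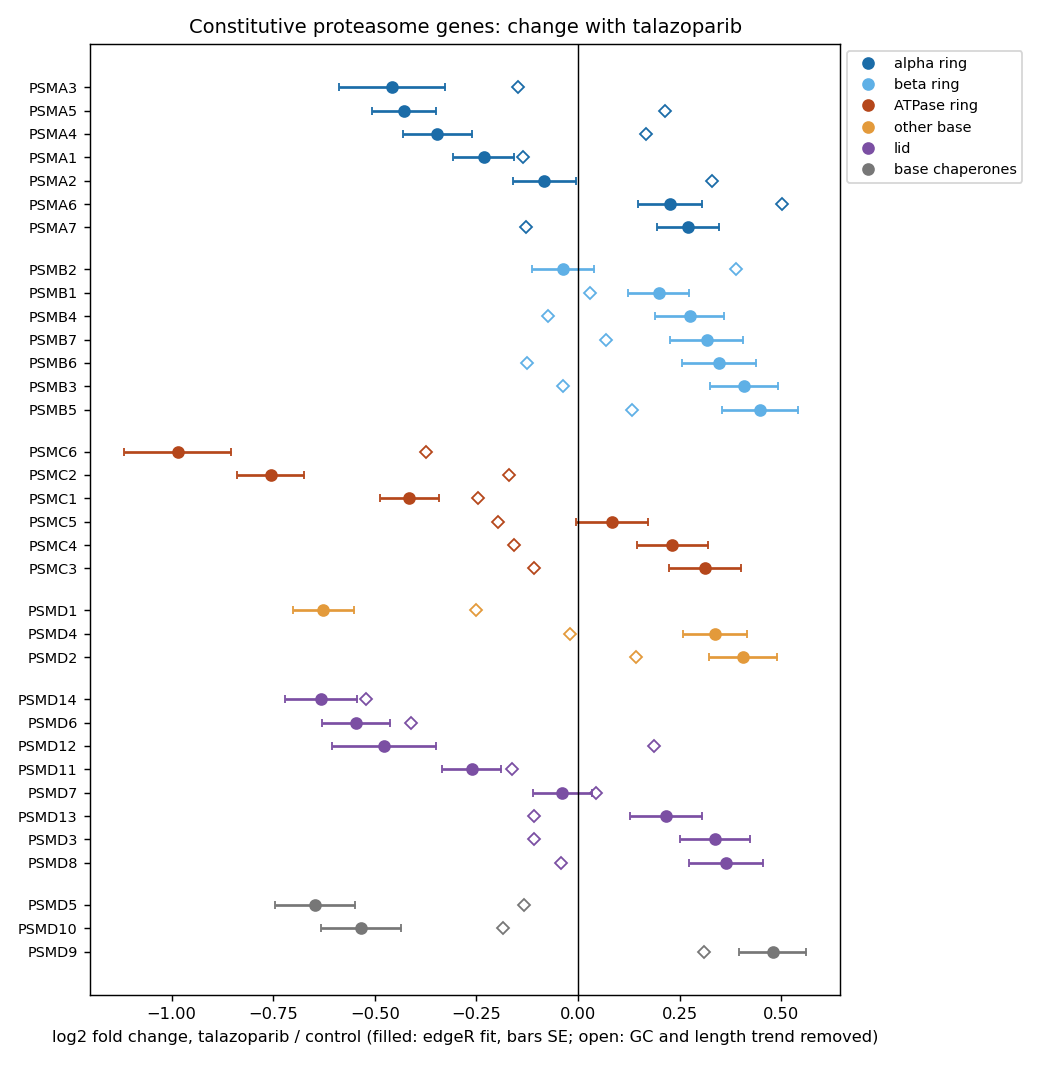
Log2 fold change (talazoparib over control) of the 34 members, grouped by role. Filled circles with bars are the edgeR estimate and its SE (n = 3 against 3), and open diamonds are trend-removed estimates. Of the 7 beta ring genes 6 lie right of 0 and are called, while the ring's 7 diamonds lie between -0.13 and 0.39; all 6 ATPase diamonds lie left of 0.

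The beta ring holds the 3 proteolytic subunits, and all 3 rose. PSMB5 (chr14:23016543-23035230, minus strand, GRCh38), the chymotrypsin-like subunit that the drug bortezomib binds, stood at 129.5, 105 and 113 CPM (counts scaled to library size) in control replicates 1, 2 and 3 and at 155, 173 and 146 CPM in talazoparib replicates 1, 2 and 3. Every talazoparib library was above every control, and the log2 fold change was 0.45 ± 0.09 (SE; edgeR adjusted p = 0.00155).

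PSMB6, the caspase-like subunit, went from 238, 197 and 202 CPM to 264, 294 and 251 CPM (log2 fold change 0.35 ± 0.09, edgeR adjusted p = 0.00612). PSMB7, the trypsin-like subunit, went from 277, 228 and 246 CPM to 301, 341 and 293 CPM (0.32 ± 0.09, adjusted p = 0.00902). Neither gene's groups overlapped, though control replicate 1 came close to the talazoparib libraries for both. The rise of PSMB6 was no longer called without control replicate 3 (0.28), and that of PSMB7 without control replicate 2 (0.22) or 3 (0.27). Trend-removed, the 3 log2 fold changes were 0.13 for PSMB5, -0.13 for PSMB6 and 0.07 for PSMB7, and of these the value of PSMB6 passed, as lower.

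The other 4 beta genes encode structural subunits that complete the ring. PSMB3 had the smallest adjusted p of the ring: 292, 245 and 252 CPM in controls and 343, 372 and 333 CPM with talazoparib (log2 fold change 0.41 ± 0.08, edgeR adjusted p = 0.00138; trend-removed -0.04). PSMB4 and PSMB1 rose by 21.0% and 14.7%. Neither of these smaller rises stayed called in every fit that left out a library. PSMB4 was not called without control replicate 2 (0.18) or 3 (0.22), and PSMB1 not without control replicate 2 (0.13) or 3 (0.15) or talazoparib replicate 1 (0.20) or 2 (0.17). PSMB2 was the exception, at 309, 280.1 and 275 CPM against 286, 292 and 264 CPM; its groups overlapped (log2 fold change -0.04 ± 0.08, edgeR adjusted p = 0.688). Its mRNA is the longest of the ring, with a deposited length of 4528 nt against 762 to 1243 nt for the others, and the lowest in GC, at 43.6%. Trend-removed, PSMB2 was the ring's gene with the largest value and was called higher (0.39).

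The alpha ring moved mostly the other way. PSMA5 (chr1:109399031-109426427, minus strand) fell from 118, 111 and 120.2 CPM to 92.0, 85.6 and 81.5 CPM, with a log2 fold change of -0.43 ± 0.08 (edgeR adjusted p = 0.000623). All 3 talazoparib libraries were below all controls. PSMA3, PSMA4 and PSMA1 fell by 27.2%, 21.3% and 14.8%, and the smallest of these was not called without talazoparib replicate 2 (-0.20). Trend-removed, none of the 4 falling alpha genes passed, and PSMA4 and PSMA5 had positive values of 0.17 and 0.21.

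PSMA7 rose from 311, 267 and 281 CPM to 349.7, 344 and 341 CPM (log2 fold change 0.27 ± 0.08, edgeR adjusted p = 0.00898). Its talazoparib libraries lay close together and above the controls, but the call was lost without control replicate 2 (0.19) or 3 (0.22), and the trend-removed value was -0.13, called lower. PSMA6, the most abundant alpha gene in CPM (412 ± 30.4 in controls, SD, n = 3), rose by 16.9% to 481 ± 22.5 CPM, and here the trend-removed value was larger, at 0.50 (adjusted p = 0.00122). The rise was not called without control replicate 2 (0.15) or 3 (0.18) or talazoparib replicate 1 (0.20) or 2 (0.21). It lies in a GC decile where 6.71% of all genes rose and 50.0% fell. PSMA2 had 156, 157 and 165 CPM in controls and 144, 144 and 163 CPM with talazoparib; the groups overlapped (-0.08 ± 0.08, edgeR adjusted p = 0.374), and its trend-removed value was 0.33, called higher.

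The ATPase ring gave the largest fall of all members. Its 6 subunits share an ATP-binding P-loop, encoded by 8 codons that are shown here in capitals with 12 coding bases on either side, read from GENCODE 29 transcripts on GRCh38. The motif has the same function in each gene, and the sequences are shown for the codons that each gene uses for it.

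PSMC6: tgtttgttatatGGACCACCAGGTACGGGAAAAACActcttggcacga
PSMC1: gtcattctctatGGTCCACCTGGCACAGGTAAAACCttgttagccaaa
PSMC2: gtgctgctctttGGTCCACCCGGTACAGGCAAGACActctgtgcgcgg
PSMC5: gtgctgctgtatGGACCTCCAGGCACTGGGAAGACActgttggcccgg
PSMC4: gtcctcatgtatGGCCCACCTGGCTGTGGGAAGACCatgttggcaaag
PSMC3: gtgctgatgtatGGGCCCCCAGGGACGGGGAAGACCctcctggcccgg

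The third codon base was G or C in 1 of the 8 P-loop codons of PSMC6, 2 of PSMC1, 3 of PSMC2 and 3 of PSMC5, and in 5 of PSMC4 and 7 of PSMC3. PSMC6, PSMC1 and PSMC2 are the 3 ATPases that fell, and PSMC4 and PSMC3 the 2 that rose. Over the whole coding sequence the third-position GC content was 35.7% in PSMC6, 46.8% in PSMC1 and 43.0% in PSMC2, 61.3% in PSMC5, which was not called, and 71.5% in PSMC4 and 73.6% in PSMC3. The short stretch shown does not follow that order throughout: its GC content was 62.5% in PSMC2, which fell, and 56.2% in PSMC4, which rose.

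PSMC6 (chr14:52707172-52728587, plus strand) went from 37.9, 42.6 and 48.0 CPM in controls to 22.6, 17.7 and 24.6 CPM with talazoparib. The highest talazoparib library was well below the lowest control, and the log2 fold change was -0.99 ± 0.13 (edgeR adjusted p = 8.28e-05). PSMC2 (chr7:103344254-103369395, plus strand) went from 91.4, 95.5 and 106 CPM to 56.4, 58.0 and 59.1 CPM, a log2 fold change of -0.76 ± 0.08 (adjusted p = 2.18e-05). PSMC1, which lies on chromosome 14 like PSMC6, fell by 25.0%. Its exons overlap NRDE2 on the opposite strand, and with its pseudogenes this makes its count the least certain of the ring.

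On the rising side, PSMC3 had 196, 164 and 175 CPM in controls and 216, 243 and 206 CPM with talazoparib (log2 fold change 0.31 ± 0.09, edgeR adjusted p = 0.00954). PSMC4 rose by 17.4%. Both rises lost their call in some fits that left out a library. PSMC3 was not called without control replicate 2 (0.22) or 3 (0.26), and PSMC4 not without control replicate 2 (0.14) or 3 (0.18) or talazoparib replicate 1 (0.26) or 2 (0.16). PSMC5, at 254, 224 and 239.7 CPM against 247, 285 and 229 CPM, overlapped between the groups (0.08 ± 0.09, edgeR adjusted p = 0.446).

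Trend-removed, the ring no longer divided. All 6 values were negative, from -0.38 for PSMC6 to -0.11 for PSMC3, and PSMC6, PSMC1, PSMC5 and PSMC4 passed as lower. With GC alone removed PSMC1 and PSMC6 remained called lower, and the values of the other 4 ran from -0.03 to 0.04. With length alone removed the ring still held both signs. PSMC6 (-0.96) and PSMC2 (-0.78) were called lower, and the other 4 were not called, from -0.148 for PSMC5 to 0.095 for PSMC3.

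Because FPKM is set per length, it allows levels to be compared between subunits that the complex needs in equal numbers. In controls the ring's mRNAs spanned 11.9 ± 1.60 FPKM for PSMC6 to 148 ± 5.42 FPKM for PSMC5 (SD, n = 3). The ratio of the highest to the lowest ATPase was 15.0, 11.7 and 11.2 in control replicates 1, 2 and 3 and 24.4, 36.0 and 22.0 in the talazoparib replicates. All talazoparib libraries were above all controls, so the most and least abundant ATPase mRNAs lay farther apart after treatment. In talazoparib replicate 3 the highest was PSMC4 (147 FPKM) and not PSMC5 (139 FPKM). These ratios keep the composition trend, whose part in them was not tested. The trend-removed log2 fold changes were -0.38 for PSMC6, -0.20 for PSMC5 and -0.16 for PSMC4. Some deposited lengths differ from the annotated transcripts, for example 5951 nt against 4448 nt for PSMC1, which moves the level of a gene but not its change between groups.

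**Figure D2:**
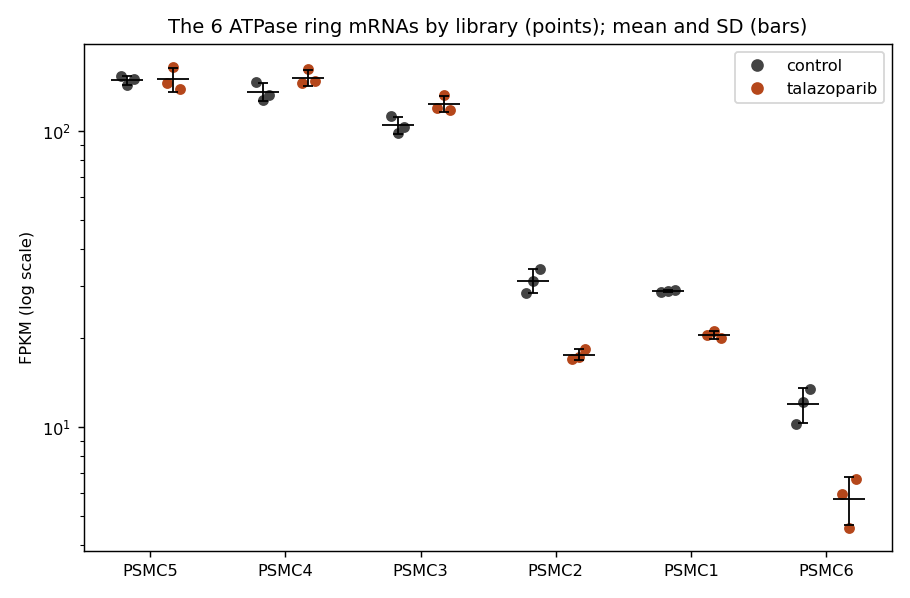
FPKM of the 6 ATPase ring genes in each library (points, log axis), with the mean and SD of 3 libraries (bars). PSMC5, PSMC4 and PSMC3 lie above 90 FPKM in both groups, and PSMC2, PSMC1 and PSMC6 lie below 40 FPKM with their talazoparib points under their control points.

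The remaining base subunits bind ubiquitin and shuttle proteins. PSMD2, the scaffold that receives ubiquitin and shuttle factors, was the most abundant member in CPM and rose from 1139, 1004 and 1027 CPM to 1386, 1512 and 1300 CPM (log2 fold change 0.41 ± 0.08, edgeR adjusted p = 0.00139). The groups were separate, and the trend-removed value of 0.14 passed as well. PSMD4, a ubiquitin receptor, went from 364, 310.4 and 332 CPM to 422, 444 and 403 CPM (0.34 ± 0.08, adjusted p = 0.00321; trend-removed -0.02). The third, PSMD1, is the large scaffold that anchors the receptor ADRM1. PSMD1 fell from 157, 171 and 172 CPM to 112, 109 and 103 CPM (-0.63 ± 0.08, adjusted p = 3.53e-05), and its trend-removed value of -0.25 was also called lower. The 2 paralogous scaffolds of the base thus moved in opposite directions in both fits.

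In the lid, PSMD14 (chr2:161308038-161411717, plus strand) had the smallest adjusted p. It encodes the metalloprotease that cuts ubiquitin chains from substrates. Its level was 57.3, 62.2 and 65.5 CPM in controls and 42.3, 37.3 and 39.6 CPM with talazoparib, with no overlap (log2 fold change -0.63 ± 0.09, edgeR adjusted p = 9.89e-05). The trend-removed value was -0.52 ± 0.07 (adjusted p = 0.000103), the largest trend-removed fall of the 34 members. PSMD7, its partner in the same module without catalytic activity, had 134, 134 and 139.6 CPM against 134, 138 and 124 CPM (-0.04 ± 0.07, edgeR adjusted p = 0.670). The groups of PSMD7 overlapped, in contrast to those of PSMD14.

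The other lid genes encode scaffold subunits. PSMD6 fell by 31.5% and stayed lower trend-removed (-0.41). PSMD11 fell by 16.6% (trend-removed -0.16, lower). PSMD12 fell by 28.2%, but its trend-removed value was 0.19 and was called higher. PSMD8 rose from 344, 283 and 298 CPM to 386, 438 and 367 CPM (log2 fold change 0.36 ± 0.09, edgeR adjusted p = 0.00497; trend-removed -0.04), and PSMD3 rose by 26.3% (trend-removed -0.11). PSMD13 stood 16.1% higher with talazoparib and missed the threshold (edgeR adjusted p = 0.0528); it passed without control replicate 1 (0.24) or talazoparib replicate 3 (0.27).

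Among the base chaperones, PSMD9 had the largest rise of the 34 members. It went from 88.8, 75.5 and 81.2 CPM to 112, 119.8 and 110.4 CPM (log2 fold change 0.48 ± 0.08, edgeR adjusted p = 0.000412), and it stayed higher trend-removed (0.31). PSMD5 fell from 77.6, 94.3 and 91.9 CPM to 52.9, 53.7 and 62.0 CPM (-0.65 ± 0.10, adjusted p = 0.000168; trend-removed -0.13). PSMD10, also known as gankyrin, fell from 34.6, 33.9 and 36.1 CPM to 23.3, 22.6 and 26.4 CPM (-0.53 ± 0.10, adjusted p = 0.000639; trend-removed -0.19, lower). For all 3 chaperones the groups were separate, but they did not move in one direction.

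Set side by side, the core particle had 8 rises and 4 falls among 14 genes (median log2 fold change 0.21), and the regulatory particle 6 rises and 8 falls among 17 (median -0.04). Leaving out control replicate 3 left 2 rises in the core, and leaving out control replicate 2 left 3, while the regulatory particle had 4 rises in each case. Calls were also fewer over all genes tested: 2622 of 14642 were higher without control replicate 3 and 2715 of 14630 without control replicate 2. With all 6 libraries 3873 of 14452 were higher. The 8 regulatory falls were called in each of the 6 fits that left out a library. Trend-removed, the core had 3 higher and 2 lower (median 0.05), and the regulatory particle 2 higher and 8 lower (median -0.16), with 14 of its 17 values below 0. The difference between the 2 medians was 0.25, 0.21 trend-removed, 0.09 with the length trend alone removed and 0.28 with the GC trend alone removed. In the last of these fits all 14 core values were above 0, and the medians were 0.27 for the core and -0.01 for the regulatory particle.

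Summed FPKM did not separate the groups. The ratio of the core to the regulatory sum was 1.44, 1.40 and 1.40 in control replicates 1, 2 and 3 and 1.46, 1.40 and 1.48 in talazoparib replicates 1, 2 and 3, with overlap. A sum is led by the most abundant genes, such as PSMB4 and PSMD2. The ratio of the particles' median FPKM was 1.53, 1.44 and 1.46 in controls and 1.81, 1.84 and 1.81 with talazoparib, and the ratio of geometric means was 1.97, 1.86 and 1.85 against 2.22, 2.15 and 2.20. Both of these were higher in every talazoparib library than in every control. The ratio of medians rests on few genes, which differed between the groups. The regulatory median was PSMD11 in each control and PSMD7 in each talazoparib library. The core median lay midway between PSMA2 and PSMA6 in controls and between PSMB5 and PSMA6 with talazoparib. The particles differ in length, with median deposited lengths of 1114 nt for the core and 1956 nt for the regulatory particle, and the part of that difference was not tested.

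**Figure D3:**
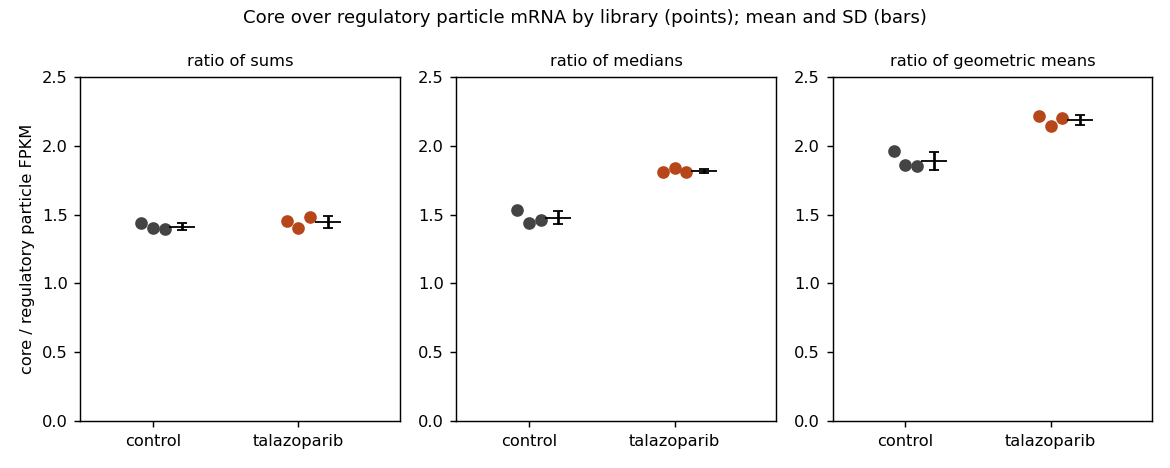
Ratio of core to regulatory particle FPKM in each library (points), with the mean and SD of 3 libraries (bars), from sums, medians and geometric means over 14 and 17 genes. The ratios of sums overlap between groups, and the ratios of medians and of geometric means are higher in the 3 talazoparib libraries.

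The 34 members together took 0.7908%, 0.744% and 0.764% of all counts in control replicates 1, 2 and 3 and 0.798%, 0.834% and 0.7915% in the talazoparib replicates. These shares lay close together, with control replicate 1 just under talazoparib replicate 3. Levels became less even within the set: the SD of log2 FPKM over the 31 subunit genes was 1.48, 1.36 and 1.35 in the controls and 1.75, 1.86 and 1.72 with talazoparib. Each talazoparib library was above each control. Over all genes tested the same measure, on log2(FPKM + 0.1), was 2.73, 2.66 and 2.68 in controls and 2.79, 2.84 and 2.78 with talazoparib.

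By median, the mRNAs of the members that rose were richer in GC and shorter than those of the members that fell, but the ranges overlapped. Transcript GC content ran from 44.5% to 58.6% (median 53.1%) for the 15 rises and from 36.8% to 48.7% (median 41.8%) for the 14 falls. Deposited lengths ran from 762 to 3018 nt (median 1328 nt) for rises and from 955 to 5951 nt (median 3535 nt) for falls. Of 8 members in the lowest 2 GC deciles of all genes 7 fell, where 66.0% and 66.9% of all genes fell. Of 15 members in the sixth to eighth deciles 13 rose, where 25.7%, 41.4% and 54.4% of all genes rose. Spearman's rho between log2 fold change and transcript GC content was 0.81 across the 34 members and 0.69 across all genes; with deposited length it was -0.47 and -0.45. The points share the same 6 libraries, so these are descriptions across genes with no test. The relation was present within the coding sequence alone: rho was 0.83 with coding GC content, whose median was 55.0% for rises and 44.1% for falls. For GC content of the promoter it was -0.11 across the 29 members with a promoter sequence. The members without one were all called higher, and the other rho values were not taken over these 29, so the values are not directly comparable.

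**Figure D4:**
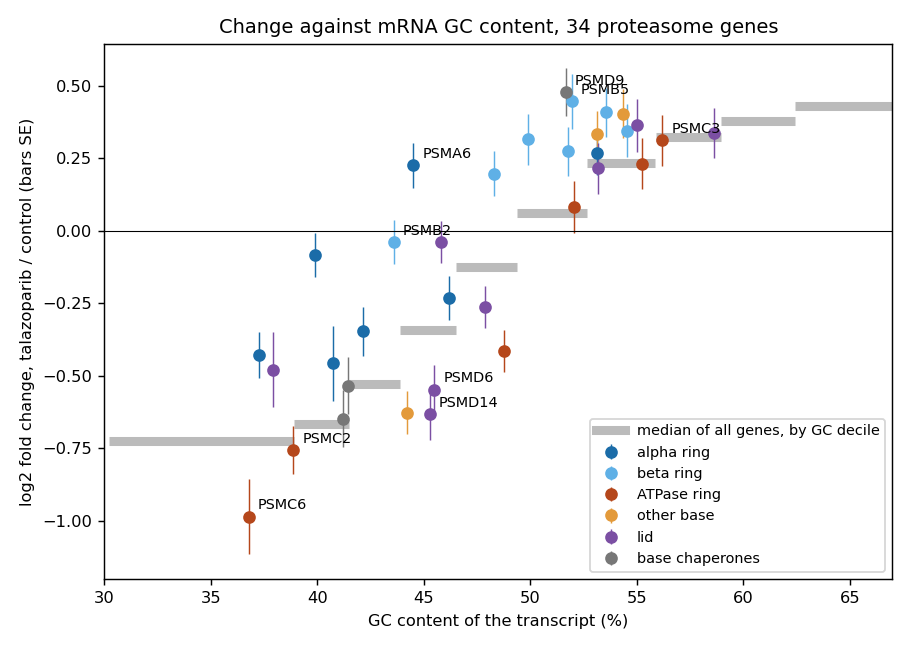
Log2 fold change (bars, SE) against GC content of the longest coding transcript for the 34 members, coloured by role. Grey bars are medians of all genes in each GC decile; these rise from -0.73 to 0.43, and the members run from PSMC6 at 36.8% GC and -0.99 to PSMD3 at 58.6% GC and 0.34.

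Promoters were examined for 3 short motifs as a description, since NFE2L1 and NFE2L2 bind the antioxidant response element, whose core is TGANNNNGC. Either strand counted. The RefSeq promoter table (GRCh38.p14) held 29 of the members, and PSMA7, PSMB1, PSMB6, PSMB7 and PSMD4 were not among them. All of these missing members were called higher, so the promoters cover 10 of the 15 rises but all 14 falls. TGANNNNGC occurred in 21 of 35 member promoters (60.0%) and in 42.4% of the promoters of all genes tested, which have the same length. By member, for which no share over all genes is given, it occurred in 9 of 10 that rose, 7 of 14 that fell and 3 of 5 that were not called. CCAAT, bound by the factor NF-Y, occurred in 16 of 35 member promoters (45.7%) and in 34.2% of the promoters of all genes tested. By member it occurred in 5 of 10, 7 of 14 and 4 of 5. GGAA, the core of ETS sites, was in all 35 member promoters and in 95.2% of the promoters of all genes tested, so it sets nothing apart.

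The windows below, from the upstream part of 4 promoters, show the largest rise, the rise with the smallest adjusted p in the beta ring, the largest fall, and a fall with a match. Capitals mark TGANNNNGC on either strand, and in these windows no match overlapped a CCAAT match. They lie at chr12:121888540-121888730 (plus strand), chr17:38752491-38752735 (plus), chr14:52706950-52707171 (plus) and chr17:67366628-67366827 (minus), in the order shown.

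PSMD9: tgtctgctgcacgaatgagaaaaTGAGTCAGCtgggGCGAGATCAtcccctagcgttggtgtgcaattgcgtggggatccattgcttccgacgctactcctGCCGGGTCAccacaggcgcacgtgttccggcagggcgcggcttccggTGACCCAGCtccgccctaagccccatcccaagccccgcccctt
PSMB3: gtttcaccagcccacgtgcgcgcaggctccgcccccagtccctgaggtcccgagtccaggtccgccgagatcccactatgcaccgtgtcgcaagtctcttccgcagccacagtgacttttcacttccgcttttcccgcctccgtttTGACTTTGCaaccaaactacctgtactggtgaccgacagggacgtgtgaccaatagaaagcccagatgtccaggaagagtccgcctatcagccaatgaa
PSMC6: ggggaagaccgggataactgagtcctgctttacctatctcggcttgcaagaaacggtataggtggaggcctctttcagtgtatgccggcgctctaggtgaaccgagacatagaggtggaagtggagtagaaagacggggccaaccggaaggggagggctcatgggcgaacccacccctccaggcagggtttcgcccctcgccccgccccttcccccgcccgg
PSMD12: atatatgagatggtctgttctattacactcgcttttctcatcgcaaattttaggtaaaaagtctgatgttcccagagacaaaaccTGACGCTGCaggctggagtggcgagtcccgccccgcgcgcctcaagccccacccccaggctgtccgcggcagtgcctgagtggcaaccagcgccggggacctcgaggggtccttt

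PSMD9 held 4 matches and PSMB3 held 1, PSMC6 none, and PSMD12 held 1 although its mRNA fell. The 4 windows do not show the range among falls. In promoters not shown, PSMA5 held 4 matches and PSMD5 held 3, and both were called lower, while 7 of 14 falls had any match. No binding data were collected, so a match says only that the letters are there.

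The genes that drive and complete the proteasome were taken from lists of related genes. NFE2L1, named after its values were seen, went from 321, 309 and 320 CPM in controls to 404, 432 and 391 CPM with talazoparib, with no overlap (log2 fold change 0.37 ± 0.07, edgeR adjusted p = 0.000849; trend-removed 0.18, higher). DDI2, the protease that cleaves NFE2L1 into its active form, fell from 22.6, 35.4 and 33.4 CPM to 10.6, 8.88 and 8.85 CPM (-1.69 ± 0.17, adjusted p = 1.66e-05; trend-removed -0.87, lower). NGLY1, which removes sugars from NFE2L1 and was also named after its values were seen, fell (-0.56 ± 0.12, adjusted p = 0.00218; trend-removed -0.05, not called). Of the 9 genes of this transcription axis 3 rose and 3 fell, with MAFG, a small partner of both NFE2L factors, higher (0.45) and NFE2L2, the regulator of the oxidative stress response, lower (-1.27). Trend-removed, 2 of the 9 were higher and 4 lower. VCP, the ATPase that draws NFE2L1 out of the endoplasmic reticulum and was named after its values were seen, rose with it (0.24, edgeR adjusted p = 0.0249; trend-removed 0.14, not called). The call of VCP was lost without control replicate 2 (0.17) or 3 (0.19) or talazoparib replicate 1 (0.26) or 2 (0.18). Of the genes that process NFE2L1, DDI2 was lower in both fits.

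Both remaining constitutive subunits changed by little. ADRM1, a ubiquitin receptor of the base, rose (log2 fold change 0.23), and SEM1, a small lid subunit, fell (-0.24); trend-removed each was called in the other direction (-0.26 and 0.41). ADRM1 was not called without control replicate 2 (0.14) or 3 (0.17) or talazoparib replicate 1 (0.24) or 2 (0.18), and SEM1 not without control replicate 3 (-0.22) or talazoparib replicate 1 (-0.26) or 2 (-0.22). Of 5 core assembly chaperones PSMG3 rose (0.32) and PSMG2 fell (-0.37). PSMG4 had a value of 0.16 that did not pass, but it was called higher trend-removed (0.36). PSMG3 was not called without control replicate 2 (0.24) or 3 (0.26), and its trend-removed value was -0.20, called lower. Among 3 further genes that act on assembly or association, PAAF1, a chaperone of the ATPases, rose (0.49). ECPAS, an adaptor that binds the assembled complex, fell (-1.13). TXNL1, a thioredoxin-like protein bound to the regulatory particle, had a value of -0.20 (edgeR adjusted p = 0.0506). TXNL1 passed as lower without control replicate 1 (-0.23) or talazoparib replicate 3 (-0.26), but it was called higher trend-removed (0.66).

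Alternative caps of the core particle moved apart. PSME4, a large activator that replaces the regulatory particle in the nucleus, fell from 86.8, 117 and 115 CPM to 38.9, 33.4 and 33.5 CPM (log2 fold change -1.59 ± 0.12, edgeR adjusted p = 6.31e-06; trend-removed -0.85, lower). PSME1 and PSME2, the interferon-inducible activator pair, rose by 0.60 and 0.59 on the log2 scale (trend-removed 0.23, higher, and 0.04, not called). In all, 3 of 5 genes of this list rose and 1 fell.

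Ubiquitin handling at the proteasome showed 5 falls and 1 rise among 8 genes. The shuttle factors UBQLN1 and RAD23B, which bring ubiquitinated proteins to the complex, fell by 0.79 and 0.71 on the log2 scale, and UBE3C, a ligase that extends chains on stalled substrates, fell by 0.44. All 3 were also lower trend-removed, where the list had 3 genes higher and 4 lower. The deubiquitinases USP14 and UCHL5, named after their values were seen, turned from called lower (-0.43 and -0.37) to called higher (0.25 and 0.46) in that fit. The fall of UCHL5 was called in 1 of the 6 fits that left out a library, the one without talazoparib replicate 3. Among the ubiquitin genes UBB rose, from 428, 349 and 373 CPM to 563, 639 and 535 CPM (0.60 ± 0.09, edgeR adjusted p = 0.000225; trend-removed 0.34, higher). RPS27A, which encodes ubiquitin fused to a ribosomal protein, had a value of 0.12 that did not pass, and its groups overlapped. Its trend-removed value was 0.23, called higher, and with length alone removed it was -0.20, called lower.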

How the data were processed

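Total RNA of 6 DU 145 libraries was sequenced. Extraction used TRIzol and library preparation a VAHTS Universal kit, per the labels' protocols. Tools named in the submitters' processing notes are HTSeq, HISAT2, Trimmomatic and Cufflinks, with build GRCh38. Versions, the annotation and the strand setting were not found there or in the labels. The authors deposited whole-number read counts per gene symbol and an FPKM table of the same genes. Each deposited FPKM is a count over the column total and a gene length. Lengths derived in this way were whole within 0.01 nt for 99.9% of the 21065 genes that had a count, and these were used.

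The test of the counts was edgeR's (version 4.0.16, R 4.3.3): filterByExpr with a minimum count of 10, TMM scaling, quasi-likelihood test with robust dispersion, talazoparib against control over all 6 libraries, and Benjamini-Hochberg adjustment over 14452 genes. CPM uses TMM-scaled library sizes. Each SE was obtained from the log2 fold change and the F statistic. Trend-removed fits add an offset per library, natural splines of 5 degrees of freedom over GC content of the longest protein-coding GENCODE 29 transcript and over log2 length, available for 94.9% of the genes tested.

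The members and lists were chosen with earlier results of these data known. Any member may be named; values by library are given for the 3 proteolytic subunits and, in each role group, for the called rise and fall with the smallest adjusted p and the member with the largest, and PSMC6 and other members were added after their values were seen. Related lists are represented by up to 3 members with the smallest adjusted p. Some genes that these rules name are not reported here. On counts simulated for this comparison (14306 genes), the test recovered 59.2% of genes changed 1.5-fold and 87.8% changed 2-fold. When the libraries' composition trend was simulated, 6346 of 14110 otherwise unchanged genes were called without the offset and 4 of 13430 with it; the same spline form made and removed that trend, so this says nothing of its fit to the real libraries. Replicates differed by more than sampling noise. Same-numbered libraries did not deviate together, so no pairing was used. Alternatives were RLE and total count scaling, no filter, DESeq2 1.42.0, limma 3.58.1 (voom, and log2 of FPKM with pseudocounts of 1 and 0.1), the replicate number as a block, the 3 trend fits, and leaving out each library.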

Additional observations from a re-analysis of the deposited data

How the results depend on the processing

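With RLE scaling, total count scaling, no filter, DESeq2, limma-voom and limma on log2(FPKM + 1) or log2(FPKM + 0.1), members called higher numbered 13 to 16 and members called lower 14. Leaving out 1 library gave 7 to 16 members higher (7 without control replicate 3, 8 without control replicate 2) and 13 to 14 lower, 2 to 8 core genes higher, 3 to 4 core genes lower, 4 to 7 regulatory genes higher and 8 lower; 8 of the 15 rises lost their call in at least 1 of these fits, as did 1 of the 14 falls (PSMA1). Over all genes tested, those fits called 2622 (without control replicate 3) to 3973 (without talazoparib replicate 3) higher, beside 3873 with all 6 libraries. They called 3731 to 4576 lower, beside 4327. The difference in medians between core and regulatory particle in those fits ran from 0.22 to 0.32. Values near 0 changed sign for PSMC5 (-0.008 without talazoparib replicate 2; range -0.008 to 0.152) and, without talazoparib replicate 3, for PSMB2 (0.006; -0.106 to 0.006) and PSMD7 (0.005; -0.09 to 0.005). The replicate numbers did not pair the libraries (correlations of same-numbered deviations -0.094, -0.17 and 0.004, and control replicate 1 correlated best with talazoparib replicate 2, at 0.19); with the replicate block 12 members were higher and 13 lower, and PSMA1 (-0.23), PSMA6 (0.23), PSMB1 (0.20) and PSMC4 (0.23) were not called.

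The composition fits moved most. With the GC and length trend removed there were 6 members higher and 11 lower, 3 core genes higher and 2 lower, and 2 regulatory genes higher. With length alone removed there were 2 members, 0 core genes and 1 regulatory gene higher, and the difference in medians, core particle against regulatory particle, was 0.086. With GC alone removed 5 members, 0 core genes and 5 regulatory genes were lower. Which of GC content, length or a property that moves with them underlies these shifts was not tested. With GC and length removed, log2 fold changes took the other sign for PSMA2 (0.33), PSMA4 (0.17), PSMA5 (0.21), PSMA7 (-0.13), PSMB2 (0.39), PSMB3 (-0.037), PSMB4 (-0.073), PSMB6 (-0.13), PSMC3 (-0.11), PSMC4 (-0.16), PSMC5 (-0.20), PSMD3 (-0.11), PSMD4 (-0.019), PSMD7 (0.043), PSMD8 (-0.042), PSMD12 (0.19), PSMD13 (-0.11), SEM1 (0.41), ADRM1 (-0.26), PSMB10 (-0.32), PSMG3 (-0.20), TXNL1 (0.66), USP14 (0.25) and UCHL5 (0.46). With GC alone removed they did for PSMA1 (0.031), PSMA2 (0.62), PSMA3 (0.19), PSMA4 (0.23), PSMA5 (0.35), PSMB2 (0.44), PSMC4 (-0.011), PSMC5 (-0.026), PSMD3 (-0.009), PSMD7 (0.26), PSMD10 (0.087), PSMD12 (0.26), SEM1 (0.50), ADRM1 (-0.21), PSMB10 (-0.11), PSMG3 (-0.031), TXNL1 (0.54), NGLY1 (0.073), USP14 (0.32) and UCHL5 (0.38). With length alone removed they did for PSMA7 (-0.062), PSMB1 (-0.15), PSMB2 (0.085), PSMB4 (-0.063), PSMB6 (-0.003), PSMB7 (-0.012), PSMC5 (-0.15), PSMD13 (-0.011), PSMB10 (-0.058), TXNL1 (0.23), RPS27A (-0.20) and UCHL5 (0.028).

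GENCODE names pseudogenes for 11 members, and 10 overlap an exon of a gene on the opposite strand; how reads shared with them were counted is not given in the sources used here.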

Other observations

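The inducible core subunits, which replace the proteolytic subunits in the immunoproteasome, were compared with the constitutive subunit each one replaces. PSMB8 rose from 9.14, 8.83 and 9.05 CPM in control replicates 1, 2 and 3 to 20.8, 23.0 and 20.6 CPM with talazoparib (log2 fold change 1.25 ± 0.12, edgeR adjusted p = 1.04e-05; trend-removed 0.83, higher). PSMB9 rose from 1.88, 1.63 and 1.55 CPM to 4.17, 4.39 and 4.64 CPM (1.38 ± 0.18, adjusted p = 7.40e-05; trend-removed 0.96, higher). PSMB10 had 25.0, 17.7 and 20.9 CPM against 23.1, 28.1 and 25.3 CPM, with overlap (0.27 ± 0.13, adjusted p = 0.104); it passed without control replicate 1 (0.36), and its trend-removed value was -0.32, called lower. PSMB11, the thymus subunit, had too few counts to be tested, and PSMA8 was not analysed here.

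Per length, the constitutive mRNAs remained far more abundant than their counterparts. The FPKM ratio of PSMB8 to PSMB5 was 0.0575, 0.0684 and 0.0652 in the controls and 0.109, 0.108 and 0.115 with talazoparib. The ratio of PSMB9 to PSMB6 was 0.00654, 0.00688 and 0.00636 against 0.0131, 0.0124 and 0.0153. Both were higher in all 3 talazoparib libraries. The ratio of PSMB10 to PSMB7 was 0.0908, 0.0781 and 0.0855 against 0.0773, 0.0829 and 0.0869, with overlap.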
